A study of Caenorhabditis elegans with 2 samples.

Results

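The C. elegans hmg family was taken, by Ensembl symbol, as 9 genes: hmg-1.1, hmg-1.2, hmg-3, hmg-4, hmg-5, hmg-6, hmg-11, hmg-12 and hmg-20. They were chosen by symbol, not by any measured value, out of 19973 protein-coding nuclear genes. One of them, hmg-1.1, encodes the protein that was immunoprecipitated, so the data show where this protein was found at its own gene and at the genes of its relatives. The worms were of strain RW12311, in which CRISPR had inserted a TY1::EGFP::3xFLAG tag at hmg-1.1 on chromosome II. They were synchronised as starved L1 larvae after bleaching and collected whole as L4 larvae at 48 hours, and sonicated chromatin was precipitated with an anti-GFP antibody in 2 biological replicates. There was 1 group, with no second genotype, treatment or stage, so the comparisons below are between genes and between replicates. All tissues of the worm were pooled, a signal cannot be assigned to a cell type, and both replicates came from 1 strain. The control experiment that the labels name was not analysed here.

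High mobility group proteins are chromatin proteins of several unrelated kinds. HMG box proteins such as HMG-1.1 and HMG-1.2 fold into an L-shaped domain that enters the minor groove and bends DNA, with little preference for a base sequence. HMG-3 and HMG-4 are the C. elegans versions of SSRP1, the HMG box subunit of FACT, a histone chaperone that takes nucleosomes apart and rebuilds them ahead of and behind polymerases. HMG-5 is the worm counterpart of TFAM, which packages mitochondrial DNA. HMG-11 and HMG-12 carry AT hooks, short peptides that lie in the minor groove of AT-rich DNA, in the manner of mammalian HMGA proteins. In mammals, HMG20 proteins work with the LSD1 and CoREST repressors. RefSeq describes hmg-6 and hmg-20 as HMG box domain-containing proteins.

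The sequences at the summits near the family's genes are shown first, because the values below refer back to them. Each line gives the base at the summit (the highest base of a peak, as the authors' peak caller gave it) and 50 bases on each side, on the plus strand of the NCBI RefSeq genome assembly WBcel235 (ce11). Names give the gene and the distance of the summit from the gene start in bp, minus for upstream. Capitals mark 3 hexamers, each searched on both strands. The first was GAGAGA, which reads TCTCTC on the other strand. The second was TTTTTT and the third CTCTTC. They were searched because they had been counted over all summits of these data, and the first and the third can overlap each other. The first 7 lines are summits of the authors' conservative list, and the last is a weak summit outside it. The conservative summits of hmg-6, whose stretch held CTCTTC, and of hmg-20, whose stretch held GAGAGA, are not printed but are counted below.
hmg-1.1 at -993, chrII:14249652-14249752: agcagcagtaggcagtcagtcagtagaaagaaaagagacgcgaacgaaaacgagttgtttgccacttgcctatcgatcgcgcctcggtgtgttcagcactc
hmg-1.1 at -230, chrII:14250415-14250515: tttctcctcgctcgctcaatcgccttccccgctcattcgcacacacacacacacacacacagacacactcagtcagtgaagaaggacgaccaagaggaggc
hmg-1.1 at +859, chrII:14251504-14251604: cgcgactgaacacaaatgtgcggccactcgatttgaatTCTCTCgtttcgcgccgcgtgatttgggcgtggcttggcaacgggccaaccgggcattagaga
hmg-1.1 at +1059, chrII:14251704-14251804: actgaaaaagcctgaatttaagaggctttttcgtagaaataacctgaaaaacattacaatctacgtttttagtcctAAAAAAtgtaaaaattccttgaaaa
hmg-1.2 at -1743, chrIII:6278587-6278687: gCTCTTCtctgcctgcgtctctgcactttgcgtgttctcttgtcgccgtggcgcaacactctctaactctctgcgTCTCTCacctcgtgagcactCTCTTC
hmg-1.2 at -57, chrIII:6280273-6280373: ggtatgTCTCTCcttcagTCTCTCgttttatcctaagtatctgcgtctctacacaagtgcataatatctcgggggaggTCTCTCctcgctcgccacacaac
hmg-11 at -236, chrII:4672799-4672899: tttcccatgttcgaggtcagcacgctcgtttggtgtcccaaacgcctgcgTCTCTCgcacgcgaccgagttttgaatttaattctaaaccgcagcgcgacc
hmg-12 at -546, chrII:11915917-11916017: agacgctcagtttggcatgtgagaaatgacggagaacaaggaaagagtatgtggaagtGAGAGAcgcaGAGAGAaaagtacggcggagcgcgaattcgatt

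The hmg genes held 9 conservative summits between 2000 bp upstream of their starts and 2000 bp past their ends. GAGAGA or its complement lay in 5 of these 9 stretches, against 28.2% of all 4277 conservative summits and 7.34% of stretches of the same length centred on gene starts. CTCTTC lay in 2 of the 9, against 17.3% of all summits and 8.44% of gene starts. TTTTTT lay in 1 of the 9, against 22.4% of all summits and 38.6% of gene starts. A match is a description of the letters in the window and no evidence of a binding site, and 9 stretches from 5 genes give these shares little precision. The base composition set 2 stretches apart from the others. The summit at +1059 from hmg-1.1 was 27.7% G or C, and 1.05% of all summits were at or below it. The stretch at the hmg-6 summit was 63.4% G or C, and 98.2% of all summits were at or below it. The other 7 stretches ran between 41.6% and 57.4%, against a median of 48.5% over all summits (quartiles 42.6% and 53.5%).

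**Figure D1:**
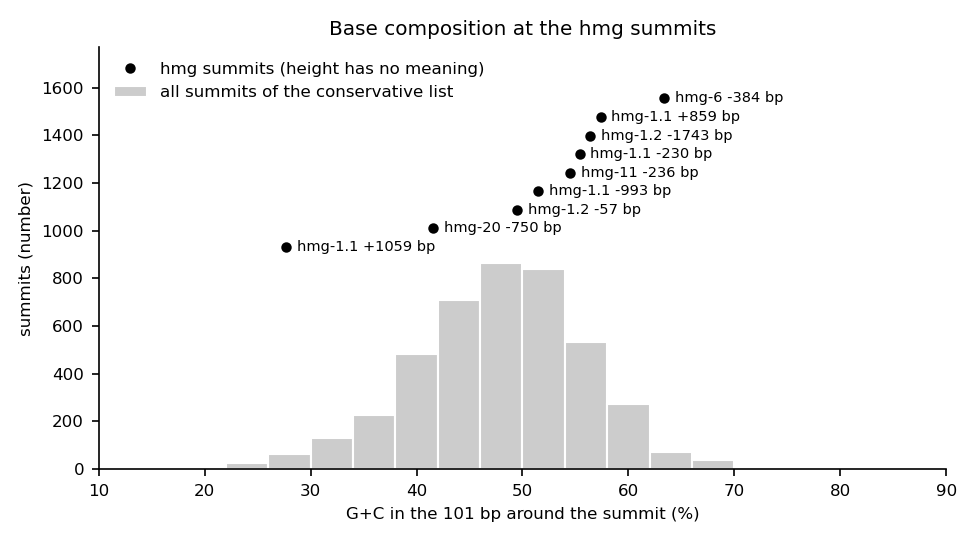
G or C content in percent of the summit base and 50 bases on each side (horizontal axis); the 9 summits at hmg genes are marked against the distribution of all 4277 conservative summits. The +1059 summit of hmg-1.1 at 27.7% lies in the low tail and the hmg-6 summit at 63.4% in the high tail.

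A gene was counted as marked when a summit lay within 500 bp of its start. In the authors' conservative list, made from both replicates together, 4 of the 9 hmg genes were marked (hmg-1.1, hmg-1.2, hmg-6 and hmg-11), against 9.78% of all genes. In the list of replicate 1 alone 3 were marked, against 6.06% of all genes, and in that of replicate 2 alone 4 were marked, against 7.30%. The gene marked in replicate 2 and not in replicate 1 was hmg-11. Over the whole window 5 hmg genes held a conservative summit, against 24.2% of all genes, the fifth being hmg-20. Of the 9 summits in these windows, 7 were listed in both replicates, that of hmg-11 in replicate 2 alone and 1 at hmg-1.1 in neither. None of the 9 lay inside its hmg gene: 7 were upstream of the start and 2 past the end. By signal, the authors' strength of a peak, whose scale the sources used here do not give, all 9 were above the median of the list, 110. The nearest protein-coding start was the hmg gene's own for 5 summits and another gene's for 4. Shares over all conservative summits are not given for listing in both replicates, placement or nearest start. These counts therefore describe the 9 summits alone.

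**Figure D2:**
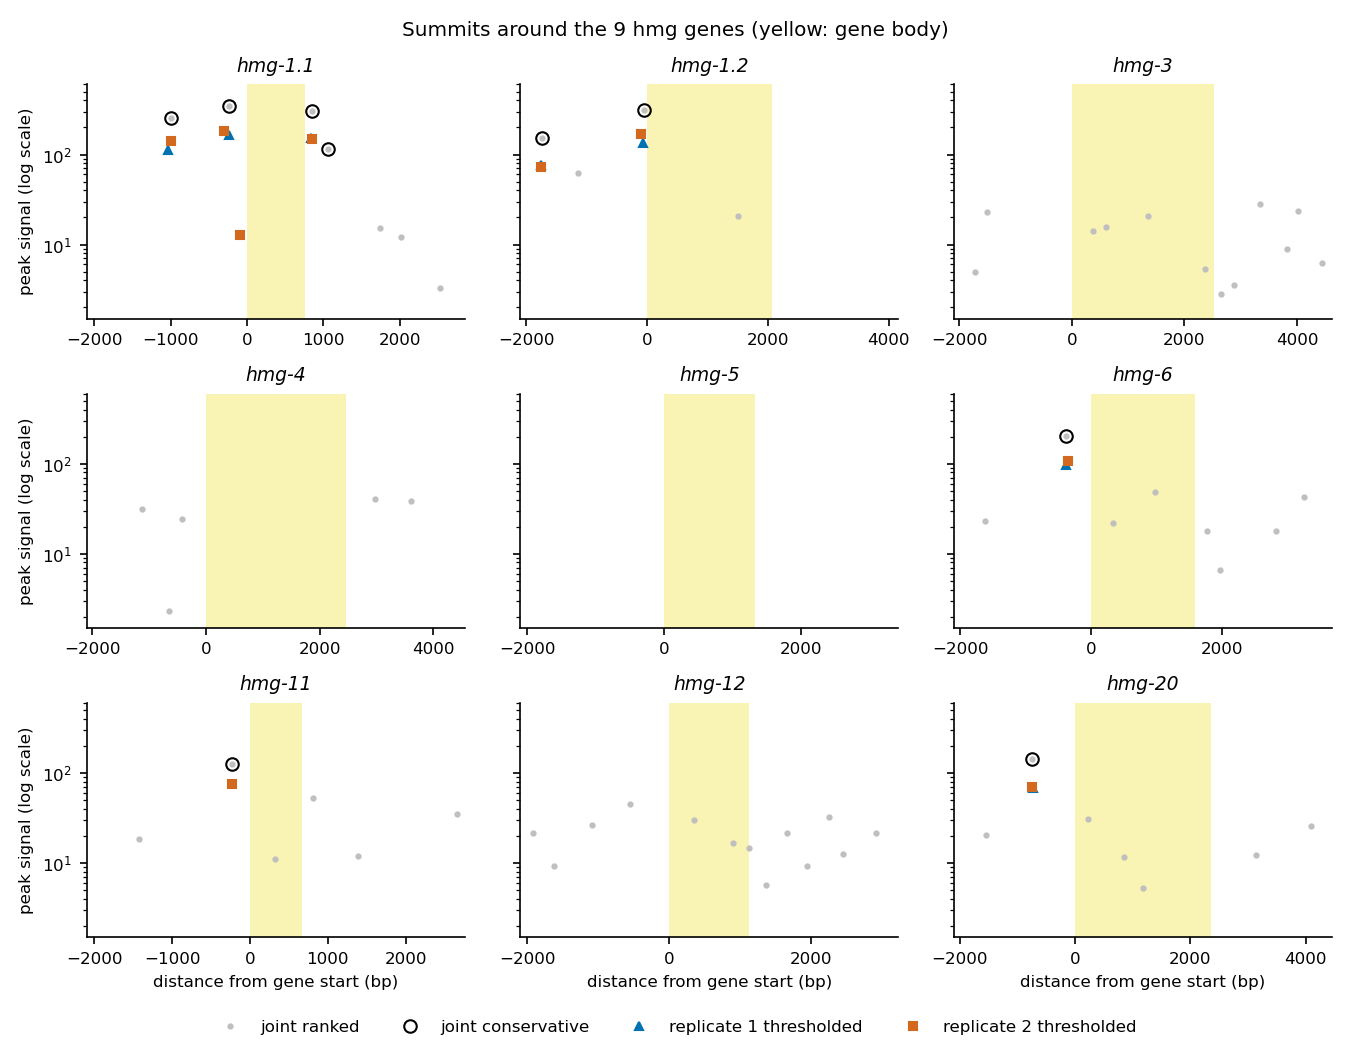
Signal of each summit (vertical axis, log scale) against its distance from the gene start in bp (horizontal axis), one panel per hmg gene with the gene body shaded; joint ranked, joint conservative and replicate thresholded summits have their own symbols. Conservative summits stand at 5 genes, upstream of the start or past the end, and the panel of hmg-5 is empty.

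The tagged gene itself was the most strongly and most densely marked of the family. The gene hmg-1.1 (WBGene00001971) covers 756 bp of the plus strand of chromosome II, from 14250695 to 14251450. It had 4 conservative summits in its window, a number reached by 0.636% of all genes and by 0.257% of the 2332 genes no longer than hmg-1.1. This number includes the summit at +1059, which neither replicate listed. Replicate 1 listed 3 summits in the window, and replicate 2 listed 4, with a weak one at -96 among them. The -96 peak overlapped the stronger listed peak of replicate 2 at -301, which is that replicate's peak for the -230 summit. The summit at -230 had a signal of 342 and ranked 239 of 4277. In the ranked list of each replicate, which keeps weak peaks as well, the overlapping peak had a signal of 164 in replicate 1, where it ranked 210 of 50642, and of 184 in replicate 2, where it ranked 243 of 46532. Its place was 0.468% ± 0.0760 from the top of those lists (SD, n = 2). It lay between genes, at -39 from the start of the non-coding RNA gene Y48B6A.18, whose own start is at -191 from that of hmg-1.1. Only 0.641% of all genes had a ranked peak at least as strong within 500 bp of the start.

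Another 2 summits, both listed in each replicate, flanked the gene. The summit 104 bp past the end of hmg-1.1, at +859, had a signal of 306 and ranked 351, with replicate signals of 151 in replicate 1 and 150 in replicate 2. The summit at -993 had a signal of 254 and ranked 529, with 113 in replicate 1 and 143 in replicate 2. It lay in the exon of the non-coding RNA gene Y48B6A.23. The nearest protein-coding gene upstream, jmjd-2, a histone demethylase gene, was 7092 bp away, so the upstream summits were closer to the start of hmg-1.1 than to that of any other protein-coding gene. The downstream summits were nearer to the start of Y54G11A.2, and lay at -803 and -603 from it.

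The fourth summit, 304 bp past the gene end at +1059, differed from the others in sequence and in its reproducibility score within each replicate. It is the AT-rich stretch shown above, its conservative signal was 114 and it ranked 2053 of 4277. The overlapping peaks had signals of 67.3 in replicate 1 and 56.5 in replicate 2, in places 1508 and 2426 of the ranked lists. Neither replicate's thresholded list held it, and its reproducibility score (IDR, scaled so that 1000 is best and 830 is the lowest listed) was 64 in replicate 1 and 62 in replicate 2. Of the 1508 peaks at least as strong in replicate 1, 96.7% were listed and 0.597% scored 64 or less, and of the 2426 in replicate 2, 94.5% were listed and 0.330% scored 62 or less. The lists also differed at -96, where replicate 2 alone listed a peak with a signal of 12.7, in place 2887 of its 3082 listed peaks.

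hmg-1.2, the other HMGB-type gene, came close to hmg-1.1 (WBGene00001972, chromosome III, 6280380 to 6282438, plus strand). Its summit at -57 had a signal of 314 and ranked 318 of 4277. The replicate peaks had signals of 136 in replicate 1 and 169 in replicate 2, at 0.729% ± 0.0336 from the top of the ranked lists (SD, n = 2), and 0.856% of all genes had a peak at least as strong within 500 bp. In each replicate the hmg-1.1 peak ranked above the hmg-1.2 peak and the percent ranks did not overlap, whereas the signals did, since 169 at hmg-1.2 in replicate 2 was above 164 at hmg-1.1 in replicate 1. As the sequence above shows, the stretch at -57 held TCTCTC 3 times. A second conservative summit at -1743 had a signal of 152 and ranked 1368, with 76.4 in replicate 1 and 73.5 in replicate 2. It lay at -286 from the start of C18F10.7, the divergent neighbour, and its replicate summits were 2 bp apart. Between these, a peak at -1151 with a signal of 62.0 scored 784, under the lowest listed score of 830, and was the strongest unlisted peak in any hmg window of the joint ranked list. It scored 743 in the other joint ranked list, and the peaks nearest to it scored 81 in replicate 1, with a signal of 28.0, and 75 in replicate 2, with a signal of 40.1.

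**Figure D3:**
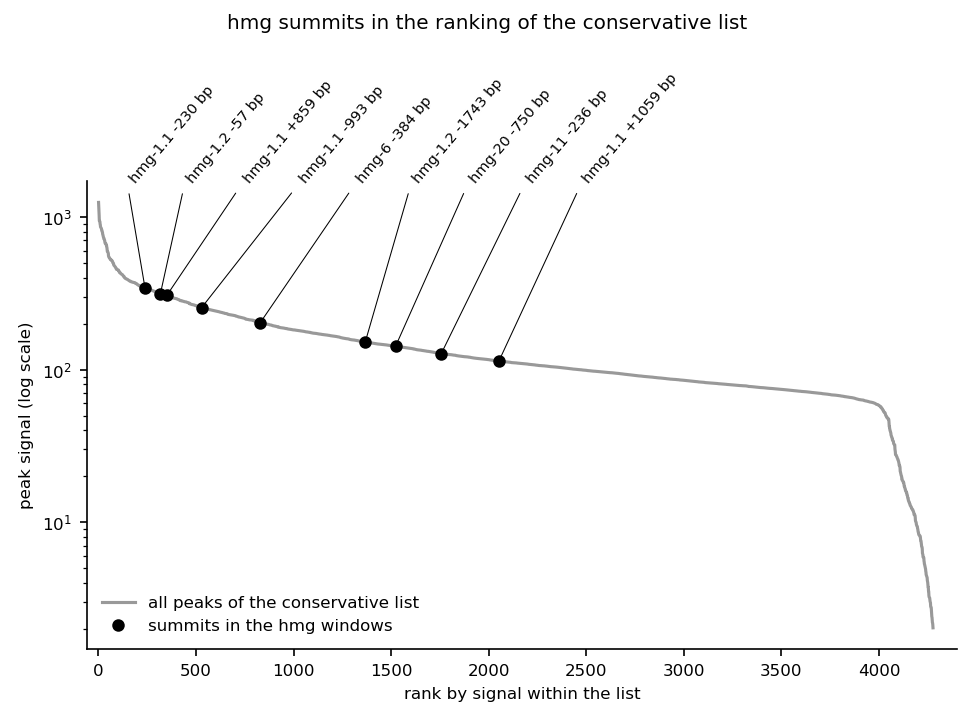
Signal of every peak in the conservative list (vertical axis, log scale) against its rank (horizontal axis), with the 9 summits at hmg genes marked. The strongest summit of hmg-1.1 lies at rank 239 and that of hmg-1.2 at rank 318, and all 9 lie above the median signal of 110.

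The AT-hook genes differed from each other. hmg-11 (WBGene00001976, chromosome II, 4673085 to 4673746, plus strand, 662 bp) was marked at -236, with a signal of 127 and rank 1757 of 4277. The overlapping peaks had signals of 58.1 in replicate 1 and 75.5 in replicate 2, at 3.61% ± 0.170 from the top of the ranked lists (SD, n = 2), with summits 1 bp apart. Replicate 1 did not list it, its score there being 815 against the lowest listed 830, and 3.97% of the 1887 peaks at least as strong in that replicate scored below 830. hmg-11 lies inside the longer gene clec-140, a C-type lectin gene on the same strand whose start is at -25 from that of hmg-11. The summit was at -211 from that start, so the peak cannot be assigned to one gene or the other. hmg-12 (WBGene00001977, chromosome II, 11916513 to 11917643, plus strand) had 13 joint ranked peaks in its window, none of them listed. The strongest was at -546, with a signal of 44.9, place 11023 of 84052 and a score of 62. It lay at -115 from the start of the divergent gene vps-15, and its sequence above held GAGAGA 2 times. The replicates disagreed there: replicate 1 had a peak at -558 with a signal of 45.1 in place 2842 of 50642, and the replicate 2 peak nearest to that place, at -864, had a signal of 5.30. Replicate 2 had its strongest peak within 500 bp at +452, with a signal of 18.2. Of the 2842 peaks at least as strong in replicate 1, 81.1% were listed. Within 500 bp, the strongest joint peak at hmg-12 was at +351 with a signal of 30.2, matched or exceeded at 30.9% of all genes.

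Neither FACT gene was marked. hmg-3 (WBGene00001973, chromosome I, 5815609 to 5818132, minus strand) had 12 joint ranked peaks in its window, the strongest at +3343 with a signal of 28.1, in place 29598 and with a score of 63. That peak lay in a coding exon of lin-35, the retinoblastoma-family gene that overlaps hmg-3 on the opposite strand. Within 500 bp of the hmg-3 start, the joint list had a peak at +367 with a signal of 14.3, replicate 1 had a peak at -170 with 14.0, and replicate 2 had none. The other joint ranked list held no peak in the window at all. A listed summit with a signal of 229 and rank 665 stood at -177 from the lin-35 start, which is 10423 bp from the start of hmg-3. hmg-4 (WBGene00001974, chromosome III, 7379143 to 7381596, minus strand) had 5 joint ranked peaks in its window, the strongest at +2967 with a signal of 40.5 and a score of 98, in a coding exon of the next gene, T20B12.7. Nearer the start, a peak at -429 had a signal of 24.4 and lay at -90 from the start of the divergent gene T20B12.3, and neither replicate had a peak within 500 bp. A joint peak as strong as that at hmg-4 stood within 500 bp of 37.7% of all genes, and one as strong as that at hmg-3 at 48.6%.

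hmg-5, the TFAM-type gene (WBGene00001975, chromosome IV, 7644895 to 7646219, minus strand), had no peak in its window in any of the 4 ranked lists. This was so for 15.5% of all genes and for 13.4% of the 14204 genes at least as long as hmg-5. Its nearest upstream neighbour is nrde-4, a gene of nuclear RNA interference on the same strand. All 32-base words around its start occur once in the genome, as they do at the other hmg genes except hmg-12, where 97.6% do. The files list peaks and hold no read counts, so the limit of detection at hmg-5 is not known.

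The remaining HMG box genes both had a conservative summit upstream. hmg-6 (WBGene00009827, chromosome I, 14059312 to 14060890, plus strand) was marked at -384, with a signal of 203 and rank 830 of 4277. The replicate signals were 96.9 in replicate 1 and 106 in replicate 2, at 1.77% ± 0.302 from the top of the ranked lists (SD, n = 2). The summit lay at -18 from the start of the small nucleolar RNA gene F47G4.9, on the opposite strand, in the stretch with the highest G or C content of the 9. hmg-20 (WBGene00012209, chromosome I, 12535314 to 12537671, plus strand) had its summit at -750, beyond 500 bp, with a signal of 142 and rank 1523. The replicate signals there were 68.0 in replicate 1 and 69.9 in replicate 2. Within 500 bp it had an unlisted joint peak at +223 with a signal of 30.8 and a score of 65, replicate 1 had 1 at +233 with a signal of 22.1, and replicate 2 had none.

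**Figure D4:**
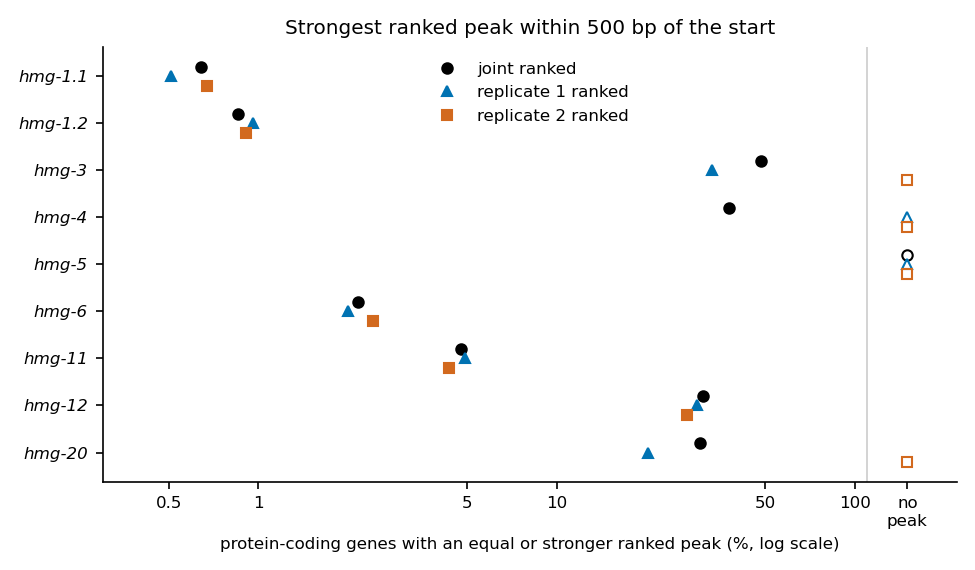
Percent of all genes with a ranked peak at least as strong within 500 bp of the start (horizontal axis, log scale), for each hmg gene in the joint list and in each replicate. The 4 marked genes lie below 5% in all 3 lists. The other genes, which by definition hold no listed peak within 500 bp, lie at 20.3% or above or have no peak.

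By the strongest peak within 500 bp, the 4 marked hmg genes kept 1 order in both replicates: hmg-1.1, hmg-1.2, hmg-6, hmg-11. The percent ranks of neighbours in that order did not overlap between replicates, but the signals of hmg-1.1 and hmg-1.2 did, and no test of these differences was run. The 5 unmarked genes, which by definition hold no listed peak there, stood well below by this measure. At 4 of them replicate 2 had no peak within 500 bp, so their order is not known. Beyond that distance, the conservative summit of hmg-20 at -750 had a signal of 142, above the 127 at hmg-11. Across all 9 genes a ranked peak within 500 bp was found at 8 in the joint list, at 7 in replicate 1 and at 5 in replicate 2, against 55.0%, 40.4% and 38.1% of all genes. Within the window it was 8 of 9 in the joint list, against 75.9%. The median of the strongest ranked signal within 500 bp over the 9 hmg genes was 30.8 in the joint list, 22.1 in replicate 1 and 18.2 in replicate 2, with a gene without a peak counted at 0, against 12.6, 0.00 and 0.00 over all genes. The joint ranked list held 62 summits in the hmg windows, 53 of them below the listed score. Of these 53, 29 had the lowest score the list gives and 26 lay in coding exons, without shares over the whole list to compare. Their signals had a median of 18.3 (2.28 to 62.0). The median over the whole list, which includes the listed peaks, was 21.7.

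At the 9 conservative summits the positions in the replicates were 1 to 70 bp apart. Over the 4226 of 4277 conservative peaks that had a peak in both replicates, the median distance was 25.0 bp (quartiles 10 and 54). The widest, 70 bp, was at -230 of hmg-1.1, the strongest summit of the family, where replicate 2 placed it at -301 and replicate 1 at -231. A distance of 70 bp or more was found at 17.6% of those 4226 peaks. The log2 ratio of the signal in replicate 2 to that in replicate 1 ran between -0.25 and 0.38 at the 9 summits, against a median of 0.19 over the 4226 peaks (quartiles -0.06 and 0.43). Its lowest value was that of the summit at +1059.

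**Figure D5:**
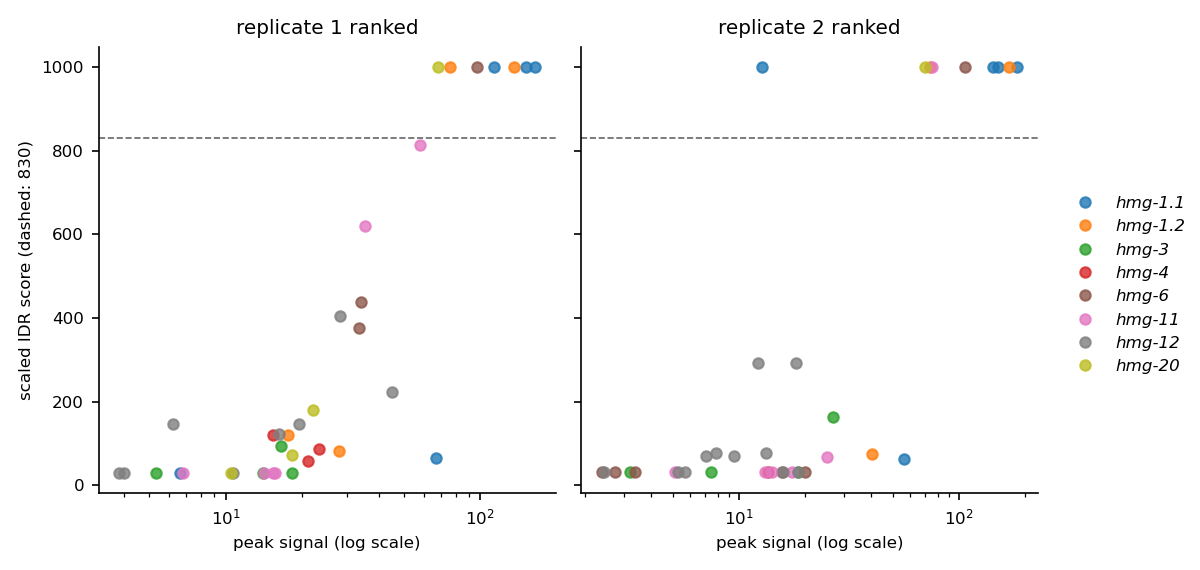
Scaled reproducibility score (vertical axis) against signal (horizontal axis, log scale) of the ranked peaks in the hmg windows, one panel per replicate and one colour per gene, with the listed threshold of 830 as a line. The hmg-1.1 summit at +1059 has signals of 67.3 and 56.5 but scores of 64 and 62 in the replicates, and the hmg-11 summit lies just under the line in replicate 1.

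Genes that work with the family or resemble it were looked at in lists of named genes, of which 32 outside the hmg genes were found in the annotation, and 7 of these 32 were marked, against 9.78% of all genes. Of the 3 FACT genes, spt-16 included, 0 were marked. Of 9 linker histone genes 2 were marked: his-24, an H1 gene, had a signal of 192 at +8 and was listed in both replicates, and hil-3 had 83.9 at -14 and was listed in replicate 2 only. Of 7 further HMG box genes 1 was marked, the SWI/SNF subunit gene swsn-3, with a signal of 182 at -133 and a listing in both replicates. Of 7 genes of LSD1 and CoREST type complexes, hmg-20 included, 2 were marked. These were rcor-1, a CoREST gene, with 104 at -351 and a listing in both replicates, and the demethylase gene lsd-1, with 85.0 at -500, the edge of the distance allowed, and a listing in neither replicate. Of 6 genes of mitochondrial DNA maintenance, hmg-5 included, 1 was marked, mtss-1, which encodes the mitochondrial single-strand binding protein. Its conservative summit had 142 at -184, and a summit was listed there in both replicates. Of 4 heterochromatin genes 1 was marked, lin-61, with 89.7 at -372, although bub-1 has the nearer start and replicate 1 did not list it. The signals at hmg-1.1 and hmg-1.2 were above all 7 of these, and the strongest signal of a marked gene had a median of 126 over all 1954 marked genes (quartiles 91.3 and 189).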

How the data were processed

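ChIP-seq peak lists of 1 group with 2 biological replicates were used. Per the file headers and listings, the authors derived them from replicate and control alignments on ce11; the sources used here name no aligner, peak caller or version. For each peak there is the authors' scaled IDR score, the authors' signal value, whose scale is not stated, and the deposited −log10 q-value, and in the ranked lists also the deposited global IDR on a −log10 (log10) scale. The deposited summit position was used throughout. The conservative list (4277 peaks) and a second joint thresholded list (4414) came from 2 joint ranked lists (84052 and 84106). The replicates had 2613 and 3082 thresholded and 50642 and 46532 ranked peaks. Reads per peak are not in these lists, and depth and counting error are therefore unknown.

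Summits were assigned to Ensembl 115 genes with Python 3.11.15, pandas 2.3.3 and numpy 2.4.6, from 2000 bp upstream of the start to 2000 bp past the end, and to starts within 500 bp. Replicate values are those of the strongest overlapping peak in that replicate's ranked list. Ranks and percentages were computed within a list. The assignment was tested on simulated peaks. The members, the gene lists and the hexamers were chosen with earlier results of these data known, so no test of chance was made. Genes named outside the family are neighbours of a described summit or members of the lists that were marked. Of the listed symbols, 3 were not found in the annotation. Sequences came from the NCBI WBcel235 genome.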

Additional observations from a re-analysis of the deposited data

How the results depend on the processing

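The number of hmg genes marked within 500 bp, 4 of 9, was 4 in the other joint list, without replicate 1 and at a q-value of 0.05 (3577 peaks). It was also 4 from any transcript start and by overlap of the whole peak. A global IDR of 0.01 kept all 4277 peaks, so neither this number nor that of the summits in the windows could change there. The number of marked genes was 3 without replicate 2 and where a summit counted only for its nearest protein-coding start, both leaving out hmg-11. With non-coding genes included, the nearest start was that of Y48B6A.18 for the hmg-1.1 summit and that of F47G4.9 for the hmg-6 summit. The number was 3 within 250 bp, which left out hmg-6, and 5 within 1000 bp, which added hmg-20. The number of summits in the windows, 9, was 9 under the other list and at a q-value of 0.05, and 7 without replicate 2. It was 9 without replicate 1 too, but there the hmg-1.1 summit at +1059 was lost and 1 at -96 was gained. The peak at -96 overlapped the stronger listed peak at -301, so it was not a separate region. Of the 5 unmarked genes, 4 had a weak joint ranked peak within 500 bp. This number was 4 within 1000 bp, 3 in the other joint ranked list and 1 within 250 bp, and with 1 replicate left out, an alternative added after the data were seen, it ran between 1 and 3. It was 1 without replicate 1. The cause was not tested. The percent rank of hmg-1.1, 5.59 in the conservative list, was 7.75 without replicate 1 and 7.92 without replicate 2. That of hmg-1.2, 7.44, was 10.5 and 14.4, and that of hmg-6, 19.4, was 29.5 in each case. That of hmg-11, 41.1, was 51.6 without replicate 1 and had no value without replicate 2. The later values are places in the thresholded list of the remaining replicate, which is shorter than the conservative list. The hmg-1.1 peak was in place 239 of 4277, against 239 of 3082 in replicate 2 and 207 of 2613 in replicate 1. Percent ranks from lists of such unlike length are not directly comparable. No paired analysis was possible because there is only 1 group. With 2 replicates, no read counts and no control values, neither the precision of a signal nor the limit of detection at a gene without a peak is known.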

Other observations

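At hmg-1.1, score and signal did not run together in replicate 2. Its thresholded list held the peak at -96, with a score of 1000 at a signal of 12.7, and did not hold the peak at +1059, with a score of 62 at a signal of 56.5. Both overlapped a stronger listed peak of that replicate. The peak at -96 overlapped that at -301, which also scored 1000 and had a signal of 184. The peak at +1059 overlapped that at +857, which scored 1000 and had a signal of 150. No cause was tested.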
